A study of Mus musculus with 12 samples.

Results

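The genes described here encode the peroxisome proliferator-activated receptors (PPARs), the retinoid X receptors (RXRs) and 3 of their coregulators, in mouse muscle cells exposed to perfluorooctanesulfonate (PFOS). They were chosen by name as Ppara, Ppard, Pparg, Rxra, Rxrb, Rxrg, Ppargc1a, Ppargc1b and Ncor1, and all 9 were found among the 54532 genes of the deposited count table. The cells were C2C12, a line derived from mouse skeletal muscle that the sample titles call myoblasts. Confluent dishes were kept for 24 h with 0, 2 or 6 µM PFOS, a persistent perfluorinated surfactant. Each dose had 4 libraries, 12 in all, made from messenger RNA. Whether the libraries of a dose stem from separate dishes is not stated in the labels, and the p-values therefore speak only of the spread between these libraries, which may be technical. The untreated libraries are the same in both comparisons with 0 µM, so the results of 2 and of 6 µM against 0 µM are not independent of each other.

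PPARs are nuclear receptors that bind fatty acids and their derivatives. They act on DNA as pairs with an RXR, which is also the partner of the retinoic acid, thyroid hormone, vitamin D and liver X receptors. Without a ligand the pair can hold corepressors such as NCoR1, which brings histone deacetylase activity, and with a ligand it recruits coactivators such as the PGC-1 proteins. In skeletal muscle, PPARδ and PGC-1α are known for driving fatty acid use and the oxidative fibre programme, while PPARγ is best known as the receptor that drives fat cell formation.

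The libraries held 30206155 to 50351082 counts. Values are given as CPM (counts scaled to a common library size, with a normalisation factor) within a gene, and as CPM per kilobase of gene length (RPKM) between genes. Calls rest on edgeR's quasi-likelihood test, at a p under 0.05 after Benjamini-Hochberg adjustment over all 16038 genes tested; adjusted p-values below come from that test unless another tool is named. Of 12 muscle markers, 0 were under 0.1 CPM on average over the 12 libraries, and Des, which encodes the intermediate filament desmin, and Myod1, the myogenic regulator, averaged 259 and 30.3 CPM without PFOS. The lowest of the 12, Pax7 and Ckm, averaged 0.161 and 0.126 CPM without PFOS. Of 11 adipocyte markers, 9 were under 0.1 CPM, with Adipoq, Retn and Pck1 at 0 in every library. The summed level of the muscle list was 332 to 391 CPM at 0 µM, 297 to 335 CPM at 2 µM and 290 to 316 CPM at 6 µM. At 6 µM against 0 µM, 5 of its 10 tested members fell, where 3.66% of all tested genes fell. At 2 µM against 0 µM 1 fell, Myh1 (adjusted p = 0.0429), where 0.742% of all tested genes fell. The Myh1 call at 2 µM held in 2 of 12 fits without a library, with adjusted p up to 0.154. The fibroblast list, led by Col1a1 and Col3a1, summed to 6280 to 7990 CPM at 0 µM, 6220 to 7090 CPM at 2 µM and 5910 to 6280 CPM at 6 µM, and of its 4 tested members Col3a1 fell at 6 µM. Its call at 2 µM (adjusted p = 0.0462) held in 2 of 12 fits without a library, with adjusted p up to 0.181. Of the 7 fibroblast markers, Thy1 and Tcf21 were under 0.1 CPM, with Tcf21 at 0 in every library. Pdgfra, Dcn and Lum averaged 22.5, 4.06 and 0.151 CPM at 0 µM. The macrophage list summed to at most 14.8 CPM, the endothelial list to at most 7.49 CPM and the hepatocyte list to at most 0.208 CPM, with Ttr at 0. Of the macrophage markers, Csf1r, Ptprc and Adgre1 were under 0.1 CPM, while Cd14, Lyz2 and Cd68 averaged 7.58, 2.91 and 0.812 CPM at 0 µM. Of the endothelial markers, Cdh5 averaged 5.64 CPM at 0 µM and the others at most 0.278 CPM. The part of these lists in the results below was not tested.

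Pparg was the gene of the 9 that was called, and its start regions are shown with that of Ppard, its more abundant relative. Pparg (ENSMUSG00000000440) is a protein-coding gene on the plus strand of chromosome 6 from 115360951 to 115490399 (GRCm38), with 13 merged exons over 129449 bases. RefSeq lists 3 start regions for it on GRCm38.p6. In GENCODE release M21, coding transcripts from the upstream starts, beginning at 115360951 and 115362292, encode 475 codons, and the one beginning at 115422066 encodes 505 codons, the longer PPARγ2 form known from fat cells. Another 2 coding transcripts, of 96 and 222 codons, are shorter. The table counts the gene as a whole, so the values below do not separate these transcripts. Ppard (ENSMUSG00000002250) lies on the plus strand of chromosome 17 from 28232700 to 28301474. Each window below runs from 250 bases before to 50 bases after the RefSeq start, on the plus strand, and capitals mark the nuclear receptor half-site AGGTCA on either strand.
Pparg, chr6:115360894-115361193: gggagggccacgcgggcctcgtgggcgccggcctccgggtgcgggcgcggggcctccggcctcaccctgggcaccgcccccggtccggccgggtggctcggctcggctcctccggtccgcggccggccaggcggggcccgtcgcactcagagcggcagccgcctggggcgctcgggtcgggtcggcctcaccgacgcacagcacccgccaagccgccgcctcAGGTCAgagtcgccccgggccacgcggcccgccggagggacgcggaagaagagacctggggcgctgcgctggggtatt
Pparg, chr6:115362099-115362398: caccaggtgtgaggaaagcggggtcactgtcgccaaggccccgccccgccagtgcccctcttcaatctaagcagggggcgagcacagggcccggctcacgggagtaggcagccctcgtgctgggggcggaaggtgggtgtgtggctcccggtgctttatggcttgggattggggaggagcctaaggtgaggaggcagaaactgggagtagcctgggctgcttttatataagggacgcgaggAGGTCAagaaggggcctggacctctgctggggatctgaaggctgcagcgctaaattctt
Pparg, chr6:115421816-115422115: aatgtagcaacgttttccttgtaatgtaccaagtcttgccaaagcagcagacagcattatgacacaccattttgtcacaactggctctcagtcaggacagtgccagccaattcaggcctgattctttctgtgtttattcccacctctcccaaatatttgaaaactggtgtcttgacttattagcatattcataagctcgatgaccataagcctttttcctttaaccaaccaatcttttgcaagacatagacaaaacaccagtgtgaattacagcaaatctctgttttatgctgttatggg
Ppard, chr17:28232504-28232803: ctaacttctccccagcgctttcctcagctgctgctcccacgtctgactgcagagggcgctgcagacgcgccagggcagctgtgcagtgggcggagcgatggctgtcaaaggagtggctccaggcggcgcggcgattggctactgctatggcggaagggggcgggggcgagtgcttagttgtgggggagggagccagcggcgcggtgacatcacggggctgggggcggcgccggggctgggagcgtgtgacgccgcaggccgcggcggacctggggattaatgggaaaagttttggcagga

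The 3 Pparg starts differed in base composition. The most upstream window was 80.3% G and C with 44 CpG dinucleotides, the next 62.7% with 13, and the one of the longer protein 40.3% with 2. The Ppard window was 68.3% with 27. The median over 32851 RefSeq windows of this length was 52.7%. AGGTCA was found once in each of the upstream Pparg windows, beginning 28 and 9 bases before the window's RefSeq start, and in 16.3% of all windows. These RefSeq starts differ from the GENCODE starts at 115360951 and 115362292, and each half-site lies after that one of these 2 starts that is in its region. The GENCODE transcript of 96 codons begins at 115362349, the RefSeq start of the second window, so there the half-site lies before it. A perfect copy of the PPAR-RXR element was searched on both strands as AGGTCA followed, after any 1 base, by AGGTCA again, so that each match also holds the half-site. It was found in 0 of the 14 windows of 8 of the 9 genes and in 0.0396% of all windows. With so rare a match, 0 in 14 windows was likely from the outset. Elements with mismatches or outside the windows were not searched.

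Per length, Ncor1 was the most abundant of the 9 and the order was the same at each dose. Without PFOS, Ncor1 averaged 22.5 ± 1.24 RPKM (mean ± SD, n = 4), Rxrb 16.9 ± 2.01, Ppard 11.5 ± 1.36, Rxra 11.3 ± 0.70, Pparg 5.42 ± 0.548, Ppargc1b 1.85 ± 0.213, Ppargc1a 1.61 ± 0.236 and Ppara 0.0644 ± 0.0491 RPKM, while Rxrg had no counts. These levels put Ncor1 at the 84.8th percentile of tested genes, Pparg at the 54.6th and Ppara at the 2.64th. Among neighbours in this order, Ppard and Rxra, and Ppargc1b and Ppargc1a, overlapped between libraries at 0 µM and did not at 2 or 6 µM. The ranges of the other neighbours did not overlap at any dose, except those of Ppara and Rxrg at 2 µM. Within each library, Rxrb was above Rxra and Ppard above Pparg in 12 of 12.

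**Figure D1:**
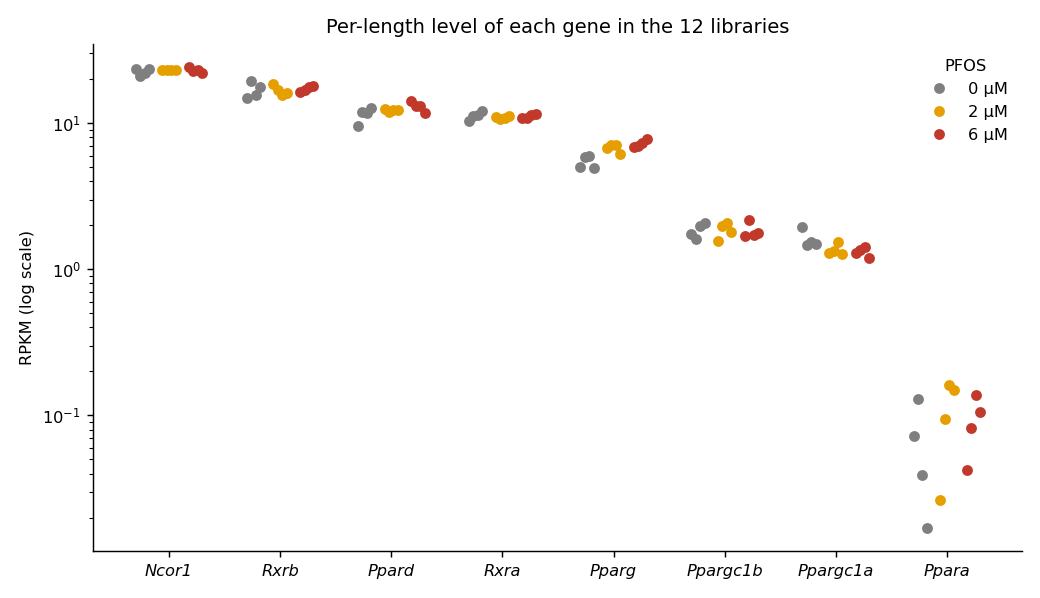
Per-length level (RPKM, log scale) of 8 of the 9 genes in each of the 12 libraries, coloured by PFOS dose; Rxrg is left out because it had counts in 1 library only. Ncor1 lies highest, at 21 to 24.2 RPKM over the doses, and Ppara lowest, at no more than 0.162 RPKM.

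Among the receptors that bind fatty acids, Pparg had more transcripts at both doses. It had 14.7, 17.4, 17.5 and 14.5 CPM in the untreated libraries, 19.97, 21.0, 21.1 and 18.2 CPM at 2 µM and 20.2, 20.7, 21.7 and 23.1 CPM at 6 µM. All 8 exposed libraries were above all 4 untreated ones, while the 2 doses overlapped. Pparg averaged 21.4 ± 1.26 CPM at 6 µM and 16.0 ± 1.62 CPM at 0 µM (mean ± SD, n = 4 each). It rose 1.33-fold (95% interval 1.18-fold to 1.51-fold), which on the log2 scale is 0.42 with a standard error (SE) of 0.0862 (adjusted p = 0.00336, edgeR quasi-likelihood test). In bulk RNA, more cells that express Pparg and more RNA per cell cannot be told apart.

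At 2 µM against 0 µM, Pparg averaged 20.1 ± 1.34 CPM against 16.0 ± 1.62 CPM and rose 1.251-fold (log2 fold change 0.32, SE 0.0862, adjusted p = 0.049, edgeR). Pparg was no longer called in any of the 12 fits that each leave out 1 library, where the adjusted p lay between 0.0506 and 0.15. The call at 6 µM held in all 12 such fits, where the adjusted p lay between 0.00379 and 0.0165. Between 6 and 2 µM the ratio was 1.07, with a 95% interval of 0.944 to 1.205 (adjusted p = 0.734, edgeR). Of the adipocyte markers, Fabp4, which is also a PPAR target, and Lipe rose at 6 µM against 0 µM. The Lipe call held in all 12 fits without a library. The Fabp4 call (adjusted p = 0.0385) held in 6 of 12, with adjusted p up to 0.123, and ended with limma-voom (0.0552) and without the 3 libraries furthest from their own dose's mean (log2 fold change 0.29, adjusted p = 0.377). Both genes together made up nearly all of that list's summed level of 16.7 to 19.1 CPM at 6 µM and 10.2 to 12.2 CPM at 0 µM, and the other 9 stayed under 0.1 CPM on average.

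**Figure D2:**
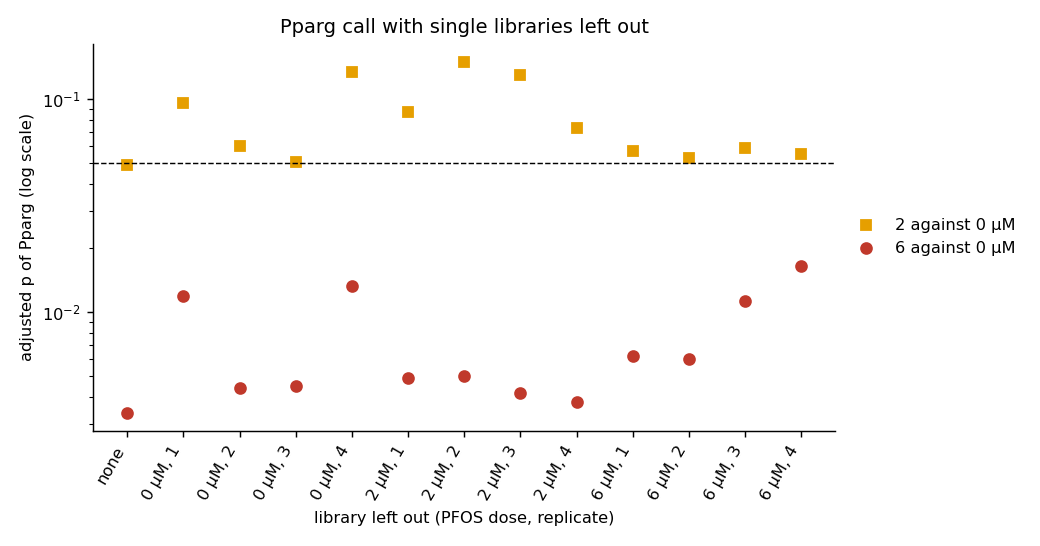
Adjusted p of Pparg (log scale) by edgeR's quasi-likelihood test with all libraries and with each library left out in turn, for 2 against 0 µM (squares) and 6 against 0 µM (circles). The dashed line is 0.05: the squares lie above it in all 12 fits without a library and the circles, at most 0.0165, below it.

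Ppard, the PPAR of most tissues and the main one in muscle, was the more abundant of the pair. It had 71.6, 90.1, 88.8 and 95.04 CPM at 0 µM, 93.8, 89.3, 92.6 and 92.1 CPM at 2 µM and 106.3, 97.8, 98.9 and 88.6 CPM at 6 µM. The low untreated library was replicate 1, and the exposed and untreated libraries overlapped at both doses. The ratio of 6 to 0 µM was 1.13, with a 95% interval of 1.03 to 1.25 (adjusted p = 0.113, edgeR; before adjustment 0.0149). Ppard was called at 6 µM without 0 µM replicate 4 (adjusted p = 0.0464) and with no filter on low counts (adjusted p = 0.0199), and its log2 fold change of 0.18 was 0.10 without 0 µM replicate 1. At 2 µM against 0 µM the ratio was 1.06, with a 95% interval of 0.964 to 1.17.

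Ppara, the PPAR of liver and other tissues that burn much fat, was near the limit of detection. It lies on the plus strand of chromosome 15 from 85734983 to 85802819 (GRCm38). It had 9, 23, 6 and 2 counts at 0 µM, 4, 18, 26 and 26 counts at 2 µM and 7, 14, 23 and 16 counts at 6 µM. The libraries of the 3 doses overlapped. The 95% interval of its ratio was 0.535 to 3.64 for 6 against 0 µM and 0.633 to 4.24 for 2 against 0 µM. Ratios within these bounds were compatible with the counts, and they include falls, rises and no change. Of the summed RPKM of the 3 PPAR genes, Ppard held 65.3% to 72% at 0 µM, 62.2% to 66% at 2 µM and 59.8% to 67.2% at 6 µM. Pparg held 27.9% to 34.2% at 0 µM, 33.2% to 37.3% at 2 µM and 32.6% to 39.6% at 6 µM, and Ppara at most 0.828% in any library. Ppard therefore had the largest share in every library, and the shares overlapped between the doses.

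**Figure D3:**
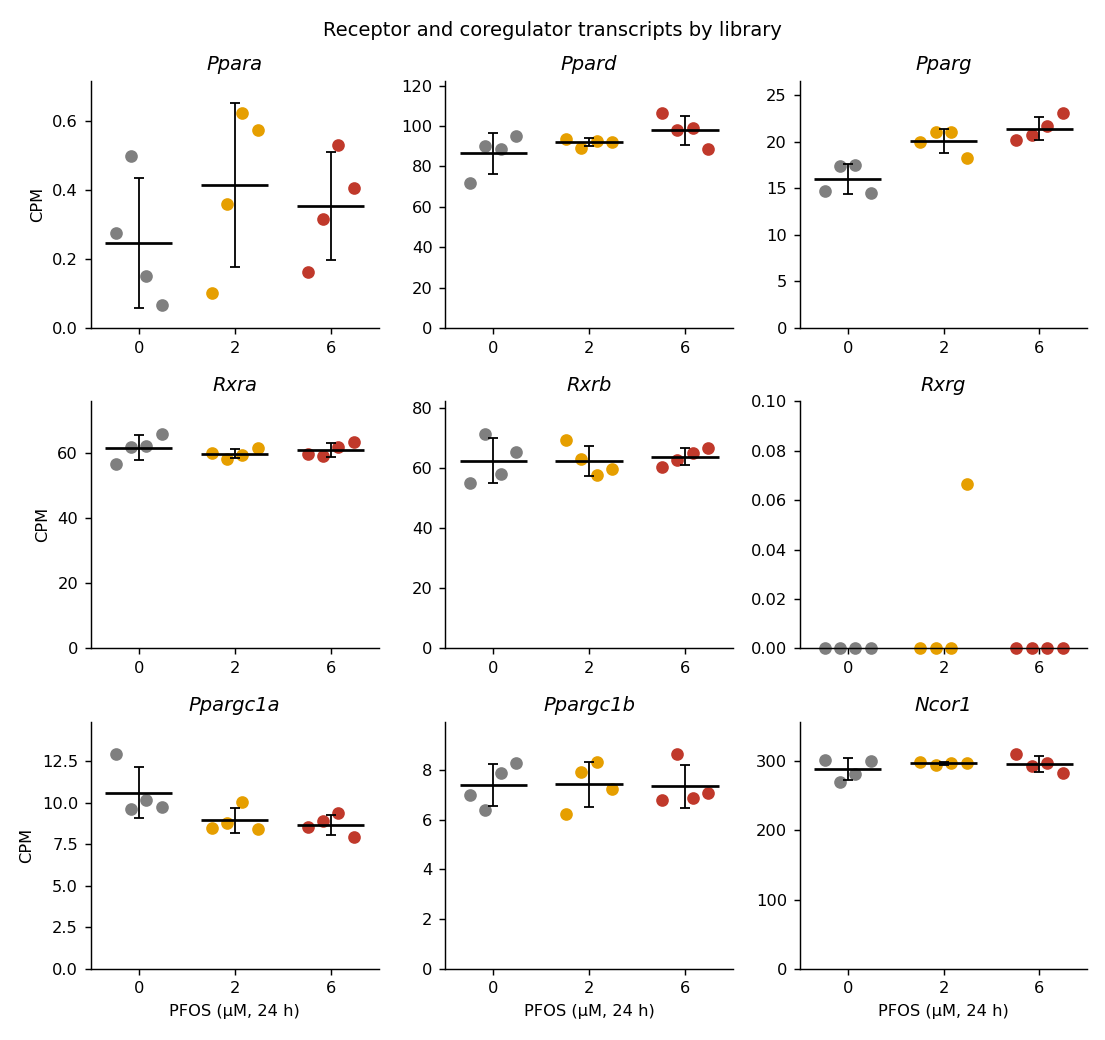
CPM of the 9 genes in each library (points) at 0, 2 and 6 µM PFOS, with the mean and SD of 4 libraries (black; none drawn for Rxrg). Pparg is higher in all 8 exposed libraries than in the untreated ones, Ppargc1a is lower in all 4 libraries at 6 µM, and the other genes overlap.

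The RXR genes, whose products pair with the PPARs, were not called in any comparison. Rxra lies on the plus strand of chromosome 2 from 27676440 to 27762957, Rxrb on the plus strand of chromosome 17 from 34031812 to 34038393 and Rxrg on the plus strand of chromosome 1 from 167598384 to 167639623 (GRCm38). Rxra had 56.5, 61.6, 62.1 and 65.8 CPM at 0 µM, 59.9, 58.2, 59.3 and 61.2 CPM at 2 µM and 59.4, 58.8, 61.8 and 63.3 CPM at 6 µM. The 3 doses overlapped, and the untreated libraries held both the lowest and the highest value. Its ratio was 0.989 for 6 against 0 µM, with a 95% interval of 0.915 to 1.07, and 0.970 for 2 against 0 µM, with an interval of 0.897 to 1.05. Rxrb had 54.8, 71.3, 57.9 and 65.4 CPM at 0 µM, 69.1, 62.9, 57.5 and 59.6 CPM at 2 µM and 60.2, 62.5, 65.0 and 66.7 CPM at 6 µM. These again overlapped, with the extremes in the untreated libraries. Its ratios were 1.02 at 6 µM, with an interval of 0.918 to 1.13, and 0.997 at 2 µM, with an interval of 0.898 to 1.11. Over both genes and both doses, the intervals lay between 0.897 and 1.13.

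Rxrg, the RXR of mature skeletal and heart muscle, had 3 counts in 2 µM replicate 4 and none in the other 11 libraries. A count of 0 allows up to 3 counts, which is 0.0601 to 0.0977 CPM in these libraries, and no fold is given. Such limits cover counting error only. The per-length level of Rxrb relative to Rxra was 1.38 to 1.71 at 0 µM, 1.43 to 1.70 at 2 µM and 1.5 to 1.57 at 6 µM. The summed level of the RXR genes relative to the PPAR genes was 1.52 to 1.72 at 0 µM, 1.35 to 1.54 at 2 µM and 1.29 to 1.5 at 6 µM.

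Of the coactivators, Ppargc1a, which encodes the inducible PGC-1α (GRCm38 chromosome 5, minus strand, 51454250 to 51567726), averaged lower in the exposed libraries but did not pass the test. It had 12.9, 9.62, 10.2 and 9.74 CPM at 0 µM, 8.495, 8.78, 10.1 and 8.39 CPM at 2 µM and 8.51, 8.87, 9.36 and 7.93 CPM at 6 µM. The libraries at 6 µM lay below all untreated ones, and those at 2 µM overlapped with them through replicate 3. The ratio of 6 to 0 µM was 0.819, with a 95% interval of 0.693 to 0.967 (adjusted p = 0.138, edgeR; before adjustment 0.0209). The untreated library of replicate 1 stood above the others, and without it the log2 fold change of -0.29 was -0.18 (adjusted p = 0.384). At 2 µM the ratio was 0.843, with an interval of 0.714 to 0.996 and an adjusted p of 0.336, and without the same library the log2 fold change of -0.25 was -0.14.

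Ppargc1b, which encodes the related PGC-1β, had 7.01, 6.39, 7.87 and 8.28 CPM at 0 µM, 6.25, 7.91, 8.34 and 7.22 CPM at 2 µM and 6.78, 8.64, 6.89 and 7.06 CPM at 6 µM. The 3 doses overlapped, and the ratio of 6 to 0 µM was 0.996 with a 95% interval of 0.824 to 1.20. At 2 µM against 0 µM the ratio was 1.01 with an interval of 0.834 to 1.22. Per length, Ppargc1a relative to Ppargc1b was 0.713 to 1.12 at 0 µM, 0.671 to 0.823 at 2 µM and 0.621 to 0.823 at 6 µM. On this per-length scale Ppargc1b was the higher of the pair in 3 of 4 untreated libraries and in 8 of 8 exposed ones. That order rests on the gene lengths of 3990 bases for Ppargc1b and 6592 for Ppargc1a. Before division by length Ppargc1a averaged the higher, with 10.6 against 7.39 CPM at 0 µM and 8.67 against 7.34 CPM at 6 µM.

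Ncor1, which encodes the corepressor, was the most deeply counted of the 9. Its locus is on chromosome 11, minus strand, 62316426 to 62458541 in GRCm38, and 82 of its exon bases (0.64%) also belong to exons of Pigl. It had 302.5, 269.7, 281.1 and 300.8 CPM at 0 µM, 298.3, 294.3, 298.2 and 296.9 CPM at 2 µM and 310.4, 293.6, 298.2 and 283 CPM at 6 µM. The doses overlapped, and the 4 libraries at 2 µM lay closest together. The ratio was 1.03 for 6 against 0 µM, with a 95% interval of 0.966 to 1.09, and 1.03 for 2 against 0 µM, with an interval of 0.968 to 1.09. Relative to the summed level of the PGC-1 genes per length, Ncor1 was 6.25 to 6.88 at 0 µM, 6.44 to 8.16 at 2 µM and 6.52 to 8.10 at 6 µM.

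**Figure D4:**
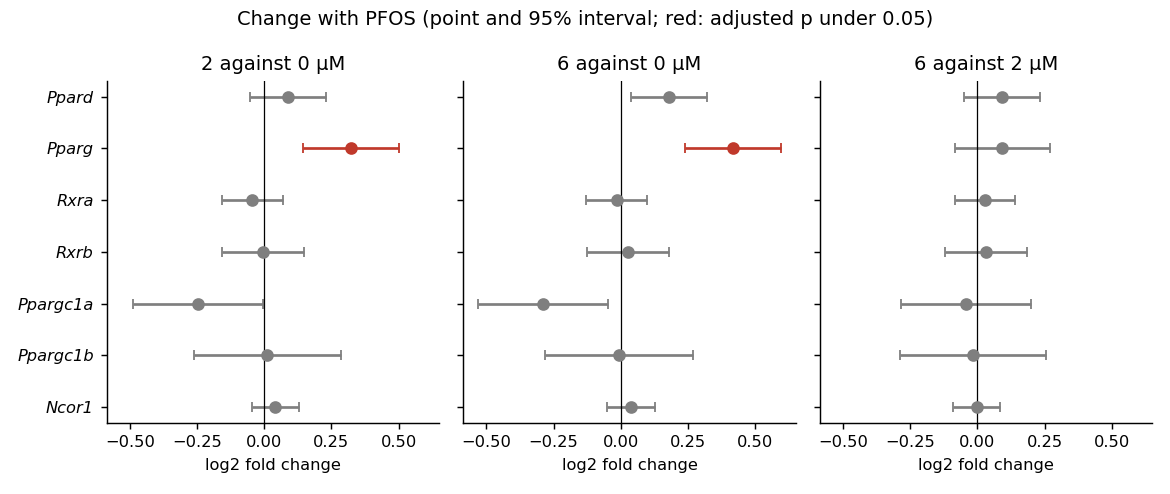
Log2 fold change with its 95% interval for 7 of the 9 genes in the 3 comparisons; red marks an adjusted p under 0.05. Ppara, whose intervals are several times wider, and Rxrg, which was not tested, are not drawn. Pparg lies at 0.32 and 0.42 against 0 µM, and the intervals of the Rxra, Rxrb, Ppargc1b and Ncor1 changes include 0 in every panel.

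Counted together, 8 of the 9 genes passed the filter on low counts, and Rxrg did not. At 2 µM against 0 µM, 1 of the 8 rose, where 1.61% of all tested genes rose and 0.742% fell (258 and 119 genes, or 184 and 134 with upper-quartile scaling). At 6 µM against 0 µM, again 1 rose, where 4.58% of tested genes rose and 3.66% fell. None of the 8 was called lower at either dose by edgeR, DESeq2 or limma-voom, and 1 was lower at an unadjusted p under 0.05 at each. Higher at an unadjusted p under 0.05 were 1 at 2 µM and 2 at 6 µM, the called Pparg among them. At 6 µM against 2 µM, where 0.561% of tested genes rose and 0.549% fell, 0 of the 8 were called by edgeR, DESeq2 or limma-voom, and 0 had an unadjusted p under 0.05. Without overlap, Pparg lay above 0 µM at 2 µM, as did 4.77% of tested genes, and 0 of the 8 lay below, where 3.6% did. At 6 µM Pparg lay above, as did 6.39%, and Ppargc1a below, as did 6.15%. Between 6 and 2 µM all 8 overlapped, where 4.45% of tested genes lay above and 4.15% below. The median log2 fold change of the 8 was 0.03 at both doses, beside -0.01 at 2 µM and -0.02 at 6 µM over all tested genes.

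Of the genes known as PPAR targets, 16 rose at 6 µM. The list of 40 symbols was written with earlier results of these data known and is no independent evidence of a direction. Of these, 30 were tested, and the other 10, such as Cd36, had 0 to 73 counts over all 12 libraries. At 2 µM against 0 µM, 7 of the 30 rose, beside 1.61% of all tested genes. At 6 µM against 0 µM the count was 16 of 30, beside 4.58% of all tested genes, and at 6 µM against 2 µM 8 rose, beside 0.561%. With single libraries left out, 12 to 15 rose at 6 µM against 0 µM, so no such fit reached 16. None fell by edgeR, DESeq2 or limma-voom with all libraries, with 2 lower at 2 µM and 0 in the other comparisons at an unadjusted p under 0.05. Acot1 and Acot2 are near-identical copies that may share reads, so both are uncertain. Acot2 is among the genes that rose at 2 and at 6 µM, and Acot1 was called lower at 2 µM without 0 µM replicate 1 (log2 fold change -1.09, adjusted p = 0.0371). The median log2 fold change was 0.12 at 2 µM and 0.18 at 6 µM against 0 µM. Without 2 µM replicate 4 the count at 2 µM was 4, and without the 3 libraries furthest from their own dose's mean (0 µM replicate 1 and 6 µM replicates 2 and 3) the count at 6 µM was 10.

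Angptl4, whose secreted product inhibits lipoprotein lipase, had 8.91, 8.25, 10.5 and 10.0 CPM at 0 µM, 62.8, 59.9, 58.8 and 65.3 CPM at 2 µM and 207.8, 212.3, 194.8 and 191.7 CPM at 6 µM. No 2 of the doses overlapped. Pdk4, whose product holds back pyruvate oxidation, had 22.6 to 24.8 CPM at 0 µM, 26.2 to 28.6 CPM at 2 µM and 61.4 to 66.6 CPM at 6 µM. It was called at 6 µM (adjusted p = 3.84e-13) and not at 2 µM (log2 fold change 0.19, adjusted p = 0.102). At 6 against 2 µM it rose by 1.24 on the log2 scale (adjusted p = 5.84e-12). Cpt1a, the entry step of mitochondrial fatty acid oxidation, had 159.4 to 180.9 CPM at 6 µM and 82.2 to 92.4 CPM at 0 µM. Plin2, which coats lipid droplets, had 188.8 to 195.1 CPM at 6 µM and 98.2 to 112.5 CPM at 0 µM, a log2 fold change of 0.88 (adjusted p = 2.3e-11, edgeR). These 4 calls at 6 µM held in all 12 fits without a library.

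**Figure D5:**
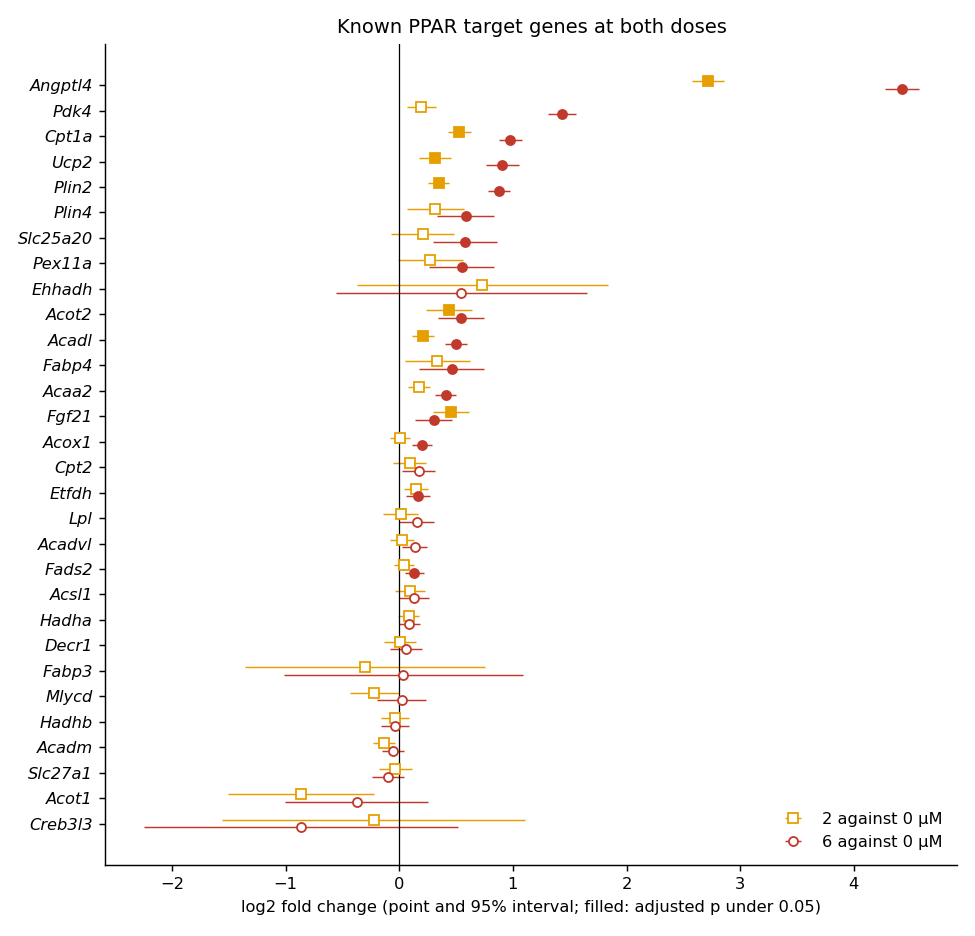
Log2 fold change with its 95% interval for the 30 tested PPAR target genes at 2 µM (squares) and 6 µM (circles) against 0 µM, ordered by the value at 6 µM; filled symbols have an adjusted p under 0.05. Angptl4 stands apart at 2.71 and 4.42, and 14 of the 30 symbols at 6 µM are open.

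Of 22 other coactivators of nuclear receptors, 2 rose at 6 µM against 0 µM, where 4.58% of all tested genes rose. At 2 µM 0 were called by edgeR, DESeq2 or limma-voom, with 3 higher at an unadjusted p under 0.05. Lpin1, whose product works both as an enzyme of lipid synthesis and as a partner of PGC-1α and PPARα, averaged 70.2 CPM at 6 µM and 53.3 CPM at 0 µM and rose by 0.40 on the log2 scale (adjusted p = 0.00103, and at most 0.0056 with any library left out). It also rose at 6 against 2 µM (adjusted p = 0.00612). Ep300, which encodes a histone acetyltransferase, rose by 0.21 at 6 µM (adjusted p = 0.0184). Its call ended without 0 µM replicates 2 and 3 (0.0667 and 0.0558) and without 6 µM replicates 1 and 4 (0.0584 and 0.0573). The list's median log2 fold change was 0.03 at 2 µM and 0.08 at 6 µM, beside the -0.01 and -0.02 of all tested genes.

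Of 18 tested genes of other corepressors and their complexes, 2 rose at 2 µM and 3 at 6 µM, beside 1.61% and 4.58% of all tested genes. The list's median log2 fold change was 0.05 at 2 µM and 0.04 at 6 µM. Hdac4, which encodes a class IIa histone deacetylase that holds back MEF2 factors in muscle, averaged 46.1 CPM at 0 µM, 59.4 CPM at 2 µM and 60.1 CPM at 6 µM. It rose by 0.36 and 0.38 on the log2 scale (adjusted p = 0.00153 and 0.000181), and both calls held without any single library. Tbl1x, which encodes a subunit of the NCoR complex, rose by 0.17 at 2 µM and 0.19 at 6 µM (adjusted p = 0.034 and 0.00798), with the call at 2 µM held in 6 of 12 fits without a library (adjusted p up to 0.164) and that at 6 µM in all 12 but not without the 3 most deviating libraries together (0.0542). Sin3a, a scaffold of histone deacetylases, rose by 0.18 at 6 µM (adjusted p = 0.0178, but 0.0599 without 0 µM replicate 2 and 0.0574 without 6 µM replicate 4).

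The other partners of RXR were not called. Of 13 such genes 8 were tested, and 0 passed in any comparison by edgeR. At 2 µM against 0 µM, 0 had an unadjusted p under 0.05, and at 6 µM against 2 µM 1 was higher at that level, with 0 called by DESeq2 or limma-voom in either. At 6 µM against 0 µM, 1 was higher and 2 were lower before adjustment (p under 0.05). DESeq2 called 1 higher and limma-voom 0. The median log2 fold change of the 8 was -0.04 at 2 µM and -0.10 at 6 µM. Among genes of retinoid handling and retinoid receptor targets, 10 of 20 were tested, with median log2 fold changes of 0.01 at 2 µM and 0.04 at 6 µM. Of the 10, 1 rose at 2 µM and 2 at 6 µM, beside 1.61% and 4.58% of all tested genes. At 2 µM DESeq2 called 2 higher and limma-voom 0, and at 6 µM each called 3 higher. By edgeR 0 fell at either dose, while 2 were lower at 6 µM at an unadjusted p under 0.05. DESeq2 called 1 lower at 6 µM and limma-voom 0. Cyp26b1, which encodes an enzyme that breaks down retinoic acid, averaged 2.24 CPM at 0 µM, 3.84 CPM at 2 µM and 8.56 CPM at 6 µM and was called in all 3 comparisons (adjusted p = 0.0111 at 2 µM and 3.68e-08 at 6 µM against 0 µM, and 0.000138 between the doses). These calls held without any single library, and the one at 2 µM ended with limma-voom (0.0578). Dhrs3, which encodes a retinal reductase, rose by 0.43 at 6 µM (adjusted p = 0.0193), a call that held in 7 of 12 fits without a library (adjusted p up to 0.0655) and ended without the 3 most deviating libraries (log2 fold change 0.29, adjusted p = 0.289).

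Of 17 partners of the PGC-1 proteins, 0 were called at 2 µM by edgeR (2 higher and 2 lower at an unadjusted p under 0.05, 1 lower by DESeq2 and 0 by limma-voom), and at 6 µM 2 rose and 2 fell. Of all tested genes, 4.58% rose and 3.66% fell at 6 µM. The list's median log2 fold change was 0.07 at both doses. Mef2c and Mef2a, which encode muscle transcription factors, fell to 42.7 and 80.4 CPM at 6 µM, against 55.8 and 97.9 CPM at 0 µM. Their log2 fold changes were -0.38 and -0.29 (adjusted p = 0.000393 and 0.00146), and both calls held without any single library. The Mef2a call ended without the 3 most deviating libraries (0.0573). Mef2d and Foxo1, a forkhead factor of the fasting response, rose by 0.22 and 0.24 (adjusted p = 0.0416 and 0.0458), and each of these calls held in 3 of 12 fits without a library, with adjusted p up to 0.129 and 0.152, and both ended without the 3 most deviating libraries (0.194 and 0.0857). The estrogen-related receptor gene Esrra, a main partner of PGC-1α, had a log2 fold change of 0.03 at 6 µM with an adjusted p of 0.864. It was named after its values were seen.

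Of 19 kinases and other regulators that act upstream of PGC-1α, 2 fell at 6 µM, and 0 were called at 2 µM by edgeR, DESeq2 or limma-voom, with 3 lower at an unadjusted p under 0.05. Of all tested genes, 3.66% fell at 6 µM and 0.742% at 2 µM. The list's median log2 fold change was -0.02 at both doses. Camk2b, which encodes a calcium-dependent kinase, averaged 10.5 CPM at 6 µM and 14.5 CPM at 0 µM (log2 fold change -0.46, adjusted p = 0.0183). That call ended without 0 µM replicate 4 (0.0604) and without 6 µM replicates 2 and 3 (0.054 and 0.074), and was 0.31 without the 3 most deviating libraries. Prkag3, the muscle γ subunit of AMP-activated kinase, averaged 2.47 CPM at 6 µM and 3.74 CPM at 0 µM, a call (adjusted p = 0.0398) that held in 4 of 12 fits without a library (adjusted p up to 0.123) and ended with no filter on low counts (0.137) and without the 3 most deviating libraries (0.196).

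Of 15 tested factors that work with PPARγ in fat cell formation, 2 rose at 2 µM and 3 at 6 µM, beside 1.61% and 4.58% of all tested genes. Their median log2 fold changes were 0.05 and -0.01. Klf5 and Klf4, which encode zinc finger factors, averaged 33.3 and 85.6 CPM at 6 µM and 26.4 and 71.0 CPM at 0 µM (adjusted p = 0.00347 and 0.0099). Both also rose at 2 µM (adjusted p = 0.0128 and 0.00652), where the Klf5 call ended without 0 µM replicate 2 (0.0518). Without the 3 most deviating libraries the Klf4 call at 6 µM ended (0.231). Ebf1, an early factor of the fat cell lineage, rose by 0.29 at 6 µM (adjusted p = 0.0386). This call held in 7 of 12 fits without a library, with adjusted p up to 0.132. The Ebf1 call also ended with upper-quartile scaling (0.0504) and without the 3 most deviating libraries (0.107). Cebpa, the usual companion of Pparg in fat cells, averaged 3.77 CPM at 6 µM and 4.21 CPM at 0 µM with an adjusted p of 0.692, and was named after its values were seen.

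Among 10675 protein-coding genes with a mean log2 CPM of at least 1, the pattern over the 12 libraries most like that of Pparg was that of Slc16a1, which encodes a lactate and pyruvate transporter, with a Pearson r of 0.913 on log2 CPM. Nadk2, a mitochondrial NAD kinase gene, had an r of 0.90, and Efcab14 an r of 0.898. The Spearman coefficients were 0.818, 0.853 and 0.930 in that order. The libraries share the dose as a common factor, and with the mean of each dose removed the Pearson r was 0.518, 0.534 and 0.677. Slc16a1 rose by 0.27 on the log2 scale at 6 µM and by 0.20 at 2 µM (adjusted p = 6.61e-05 and 0.00762), Nadk2 rose by 0.16 at 6 µM (adjusted p = 0.0237), and Efcab14 was not called (adjusted p = 0.115 at 6 µM).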

How the data were processed

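The deposited file is a single table with raw read counts, in whole numbers, of 54532 genes in 12 libraries. Per the submitters' processing notes, HISAT2 and the build GRCm39 were used, with no version, counting program, strand setting or annotation named there or in the labels (not given in the sources used here). Gene coordinates in the table are those of GRCm38: 8 of the 9 genes match GENCODE release M21 exactly, and Rxrb does not. As strand use is unknown, overlapping genes may share reads. Coordinates are printed as the table gives them.

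The test used edgeR 4.0.16 (R 4.3.3) on the counts as deposited. Genes were filtered by filterByExpr with dose as the group, which kept 16038 genes and left out 38494, and libraries were scaled by TMM factors. One quasi-likelihood model with a mean per dose was fitted to the 12 libraries, with 9 residual degrees of freedom, and p-values were adjusted by the Benjamini-Hochberg method over all tested genes. CPM used TMM-scaled library sizes, and RPKM divided CPM by the table's gene length in kilobases. Intervals are 95%. The model was tested on simulated data before use.

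All 9 genes are named whatever their result. Up to 4 called genes per list are named, by the smallest adjusted p at 6 against 0 µM and then at 2 against 0 µM. For a called gene, the 3 genes most like it are given by Pearson r of log2 CPM with a prior count of 2. The genes and lists were chosen with earlier results of these data known. Alternatives were other scalings, no filter or a mean count of at least 50, DESeq2 1.42.0, limma-voom (limma 3.58.1), only the doses compared, a replicate block and each library left out. One without the 3 libraries that deviate most from their dose's mean was added after seeing the data. Same-numbered libraries did not deviate together, and no 2 libraries of a dose agreed within sampling noise. Promoter windows are RefSeq's, on GRCm38.p6.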

Additional observations from a re-analysis of the deposited data

Results flagged for a closer look

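In each of the 25 groups of 4 libraries examined, the gap between an extreme library and its nearest neighbour was set against the group's range, where chance alone passes Dixon's limit for 4 values in about 1 of 20 groups. There were 3 such libraries. Rxrg had 0.0664 CPM in 2 µM replicate 4, from 3 counts, with 0 counts in the other libraries of that dose. Ppargc1a had 12.9 CPM in 0 µM replicate 1, above the other untreated libraries. Ppargc1b had 8.64 CPM in 6 µM replicate 2, above the other libraries at 6 µM.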

How the results depend on the processing

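The 24 log2 fold changes of the receptors and coregulators had 499 values under the alternatives. Of these, 480 kept their direction and side of the threshold or, for 42 uncalled values of at most 0.233 in size, changed sign without being called. A further 17 lost the call, 2 gained it and 0 were called the other way. At 2 against 0 µM, the 1 gene called (Pparg) became 0 with upper-quartile scaling (adjusted p = 0.0662), limma-voom (0.0665), only the 2 doses compared (0.0675), the replicate block (0.0653) and without the 3 most deviating libraries (0.108), and 0 to 0 with single libraries left out; it stayed called with DESeq2 (0.0103). At 6 against 0 µM, Pparg was called under every alternative run, and 2 genes were called with no filter and 1 to 2 with single libraries left out, the second being Ppard. With single libraries left out, the PPAR targets that rose at 2 µM numbered 4 to 8 and those that fell 0 to 1. At 6 µM, 12 to 15 rose with single libraries left out and 13 with the replicate block, in place of 16. Without the 3 most deviating libraries, 1 fell at 2 µM and 10 rose at 6 µM. The causes were not tested. Over all genes, 258 rose and 119 fell at 2 against 0 µM, against 524 and 227 by DESeq2. At 6 against 2 µM these were 90 and 88, against 229 and 216. Library numbers matched no shared deviation, with correlations of -0.028 to 0.0375 for 12 same-numbered pairs, and 5 of 12 libraries correlated best with their own number. The replicate block is therefore given only here. Ppara had 2 to 26 counts a library and Rxrg at most 3.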
